A study of Drosophila melanogaster with 2 samples.

Results

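The maltase family of Drosophila melanogaster and tobi were followed in whole heads of flies fed sucralose. The 10 genes, Mal-A1 to Mal-A8, Mal-B1 and tobi, were chosen by name as alpha-glucosidases and found by their FlyBase gene identifiers, and all 10 had a row among the 12083 genes listed in either library. Alpha-glucosidases cut glucose from the end of short sugars, so the maltases finish in the gut what amylases begin on starch and also split dietary sucrose. The protein of tobi, whose name stands for target of brain insulin, belongs to another glycosidase family and is known from fat body and gut, with an expression that depends on brain insulin-producing cells and on the endocrine cells that make adipokinetic hormone. Sucralose is a chlorinated derivative of sucrose that tastes sweet and is hardly used as fuel.

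RNA came from heads of adults of the laboratory strain w1118, a white mutant kept as a standard genetic background and shared by both groups. One group received sucralose in a control diet for 6 days and the other the control diet alone. Flies were 4 to 7 days old at first and 10 to 14 days old at the end, per the labels, which give no sex. Each diet had 1 library, so no spread between replicates can be given, no test of the diets was possible and no p-value is printed. The study's title names neuropeptide Y and a fasting-like response of neurons.

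Unique reads came to 10.4 M across 11588 genes for sucralose and 10.3 M across 11521 genes for control. Heads can include pieces of foregut, fat body and muscle, and in such bulk tissue fewer cells of a type cannot be told apart from less RNA per cell. The neuronal gene elav had 2760 reads in the sucralose and 2976 in the control library. Of the 32 gut protease and lysozyme genes listed as markers, 7 had no row in either library, and 6 of 12 other midgut genes, among them mag and Npc1b, had none. A missing row does not show missing RNA, since genes may stand under older identifiers that were not matched. Of the other lists used below, Glut3, FASN1, wupA, para, InR and Med also had no row. Ratios below are scaled reads of the sucralose library over those of the control library, with exact (Clopper-Pearson) 95% intervals that cover counting error only and compare these 2 libraries, not the diets.

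The maltases and tobi were lower in the sucralose library, but unequally. Of the 10 genes, 5 had at least 50 reads summed over both libraries (Mal-A1, Mal-A5, Mal-A6, Mal-B1 and tobi), and 4 of these 5 were at least 2-fold lower, while Mal-A5 was nearly level. Among all 8889 genes over the same floor, 4.49% were at least 1.5-fold lower, 1.61% at least 2-fold lower and 2.4% at least 1.5-fold higher. The 5 genes had a median log2 difference of -1.06, against 0.00 for all genes over the floor. Together the 10 genes had 1133 reads in the sucralose library and 1971 in the control library, a ratio of 0.564 (0.524 to 0.607). Mal-B2, a maltase gene not among the 10, is left out of these sums and had 1479 sucralose and 1919 control reads. Without Mal-A5 the other 9 genes had 431 and 1191 reads in the sucralose and control libraries, a ratio of 0.355 (0.317 to 0.397), so that the most abundant member alone moved the summed ratio by more than 1.5 times.

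**Figure D1:**
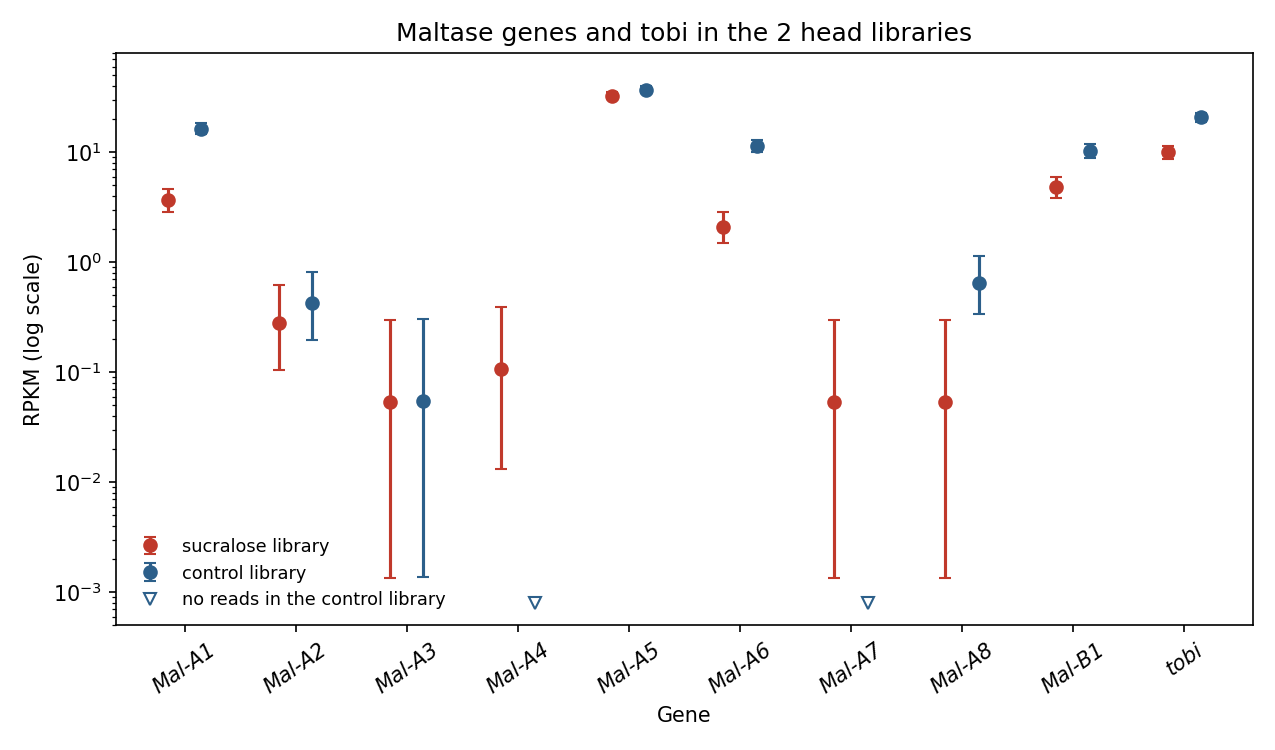
RPKM of each gene in the sucralose (red) and control (blue) library on a log scale, with exact 95% Poisson intervals for counting error, and open triangles at the foot of the axis for genes with no reads. The 5 better-counted genes lie between 2.09 and 37.0 RPKM, and the other 5 lie below 1 RPKM in both libraries.

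The 8 Mal-A genes form 1 uninterrupted run of protein-coding neighbours on chromosome arm 2R in the BDGP6.54 annotation, in the order of their numbers and with Cyp4e1 and mtt on either side. Mal-B1 lies on arm 2L next to Mal-B2, and tobi lies on arm 3R between rha and Fur1. Coordinates are not given because the build behind the deposited files is not named in the sources used here. Mal-A1 shares 4.49% of its exon bases with Cyp4e1, tobi 3.71% with rha and Mal-A8 0.331% with mtt, each on the opposite strand, and the other 7 genes share none with another gene. Mal-A6 and Mal-A7 were counted over shorter models in the deposited files (1880 and 1800 bases) than the exons of that annotation (2291 and 2717 bases).

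Mal-A6, a maltase gene, was the lowest of the 5 relative to the control. It had 41 reads and 2.09 RPKM in the sucralose library, against 221 reads and 11.4 RPKM in the control library. That is 5.49-fold lower (3.92 to 7.87), and 28 of the 8889 genes (0.315%) had a lower log2 difference than its -2.32. Reads covered 59.9% of its gene model in the sucralose library and 99.6% in the control library. A single read covered 49 bases, and reads spread at random would have covered 65.7% and 99.7% in the sucralose and control libraries, so the control reads ran along the whole model.

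Mal-A1 followed, with 70 reads and 3.68 RPKM in the sucralose library, against 308 reads and 16.4 RPKM in the control library. It was 4.49-fold lower (3.45 to 5.90), with 31 genes (0.349%) at a lower log2 difference than its -2.09. Coverage was 76.4% of the gene model in the sucralose and 95.7% in the control library, where reads placed at random would have given 84.7% in the sucralose library and nearly the whole model in the control library. The ratios of Mal-A1 and Mal-A6 did not separate beyond counting error: that of Mal-A1 was 1.23 times that of Mal-A6, with an interval that includes 1 (0.788 to 1.92).

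Mal-A5 stood apart from both. It had 702 reads and 32.8 RPKM in the sucralose library, against 780 reads and 37.0 RPKM in the control library. It was 1.13-fold lower (1.02 to 1.26), within the 1.5-fold mark, and 2003 of the 8889 genes (22.5%) had a lower log2 difference than its -0.18. Mal-A5 and Mal-A6 are neighbours on the same strand with no protein-coding gene between them, and the ratio of Mal-A5 was 4.85 times that of Mal-A6 (3.40 to 7.05). This quotient of 2 ratios within the same libraries does not depend on how the libraries are scaled. The ratio of Mal-A5 was also 3.96 times that of Mal-A1 (2.98 to 5.31), 1.90 times that of Mal-B1 (1.44 to 2.52) and 1.85 times that of tobi (1.52 to 2.25).

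Mal-B1, on arm 2L, had 91 reads and 4.81 RPKM in the sucralose library, against 192 reads and 10.3 RPKM in the control library. It was 2.15-fold lower (1.67 to 2.79). The insulin target tobi had 218 reads and 9.98 RPKM in the sucralose library, against 448 reads and 20.8 RPKM in the control library (2.09-fold lower, 1.78 to 2.47). The 2 genes were close, with a ratio for Mal-B1 that was 0.974 times that of tobi (0.714 to 1.32). In log2 difference, 109 genes lay below Mal-B1 (-1.06) and 111 below tobi (-1.05). Of the 10 pairs among the 5 genes, 8 had an interval that leaves out 1, the pairs that did not being Mal-A1 with Mal-A6 and Mal-B1 with tobi. The 5 ratios thus fell at 3 levels: 0.182 and 0.223 for Mal-A6 and Mal-A1, 0.465 and 0.477 for Mal-B1 and tobi, and 0.883 for Mal-A5. These intervals were not adjusted for the number of pairs.

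**Figure D2:**
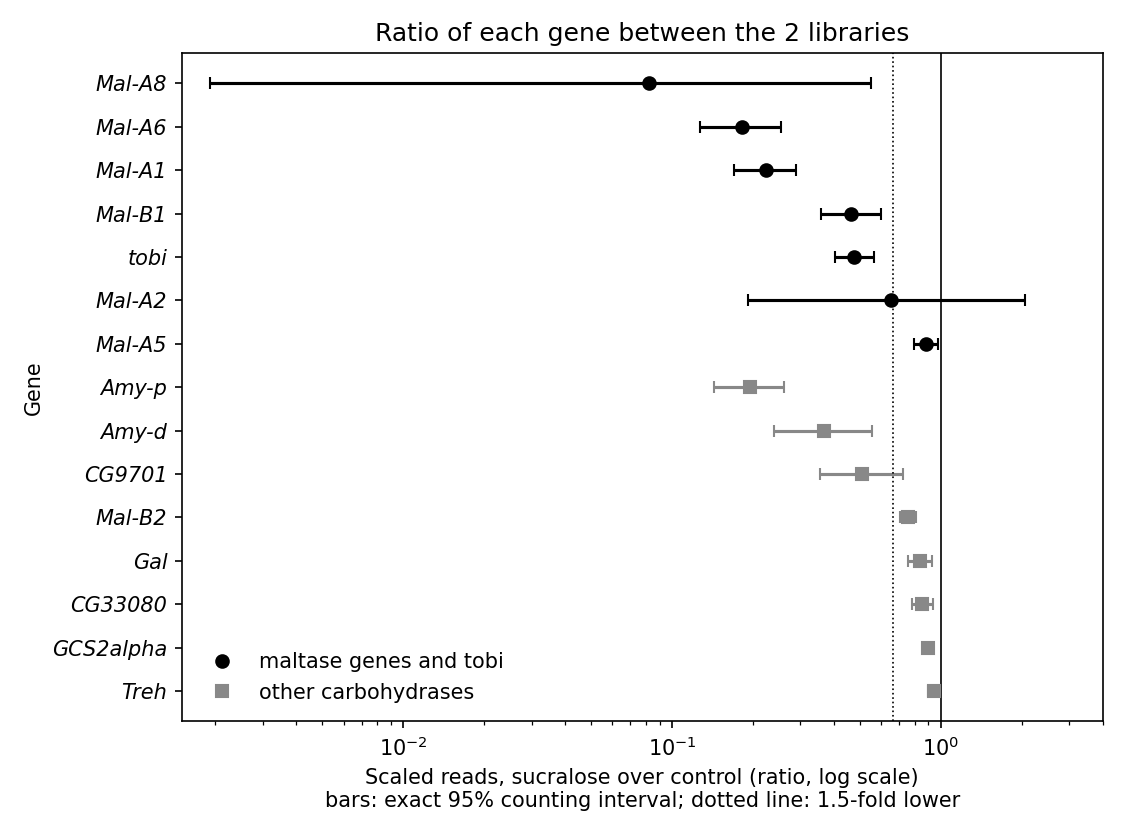
Ratio of scaled reads, sucralose over control, on a log scale for maltase genes and tobi with more than 3 reads in a library (black circles) and for other carbohydrases with at least 50 summed reads (grey squares), with exact 95% counting intervals. Mal-A6 (0.182) and Mal-A1 (0.223) lie beside the amylase gene Amy-p (0.195), while Mal-A5 (0.883) lies beside the less different carbohydrases.

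The remaining 5 of the 10 genes, all maltase genes, were barely detected in heads. Mal-A8 had 1 read in the sucralose and 12 reads in the control library (12.2-fold lower, 1.81 to 522.9), and Mal-A2 had 6 and 9 reads in the sucralose and control libraries (1.53-fold lower, 0.486 to 5.22). The interval of Mal-A8 leaves out no difference but rests on 13 reads in all, and that of Mal-A2 includes no difference. The control reads of Mal-A8 covered 20.2% of its gene model, where reads placed at random would have covered 28.1%. Mal-A3 had 1 read in each library. Mal-A4 had 2 reads and Mal-A7 had 1 read in the sucralose library, and both had none in the control library, where a count of 0 allows up to 3 reads (0.293 CPM). A difference in Mal-A3, Mal-A4 or Mal-A7 was not detectable at this depth. The 5 genes summed to 11 reads in the sucralose and 22 in the control library, a ratio of 0.491 and its interval of 0.215 to 1.06 spans 1.

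Compared per gene length, Mal-A5 was the most abundant of the 10 genes in both libraries and tobi the next. In the sucralose library Mal-B1 (4.81 RPKM, Poisson interval 3.87 to 5.91), Mal-A1 (3.68 RPKM, 2.87 to 4.65) and Mal-A6 (2.09 RPKM, 1.5 to 2.84) followed, and the intervals of Mal-B1 and Mal-A1 overlap. In the control library the order was Mal-A1 (16.4 RPKM, 14.7 to 18.4), Mal-A6 (11.4 RPKM, 9.99 to 13.1) and Mal-B1 (10.3 RPKM, 8.90 to 11.9), and the intervals of Mal-A6 and Mal-B1 overlap. Mal-B1 thus ranked 3 in the sucralose and 5 in the control library. Against all genes listed in the same library, Mal-A5 lay above 79.0% of them in the sucralose and above 80.9% in the control library. Mal-A1 lay above 31.0% and 60.3% of listed genes in the sucralose and control libraries, and tobi above 47.4% and 67.3%.

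The make-up of the 10 genes' reads differed accordingly. Mal-A5 held 62.0% of the 10 genes' reads in the sucralose library (59.1 to 64.8%, exact binomial interval) and 39.6% in the control library (37.4 to 41.8%). Mal-A1 held 6.18% (4.85 to 7.74%) in the sucralose and 15.6% (14.1 to 17.3%) in the control library. Mal-A6 held 3.62% (2.61 to 4.88%) in the sucralose and 11.2% (9.85 to 12.7%) in the control library. For these 3 genes the intervals of the 2 libraries do not overlap. For tobi (19.2% in the sucralose and 22.7% in the control library) and Mal-B1 (8.03% and 9.74%) they do.

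**Figure D3:**
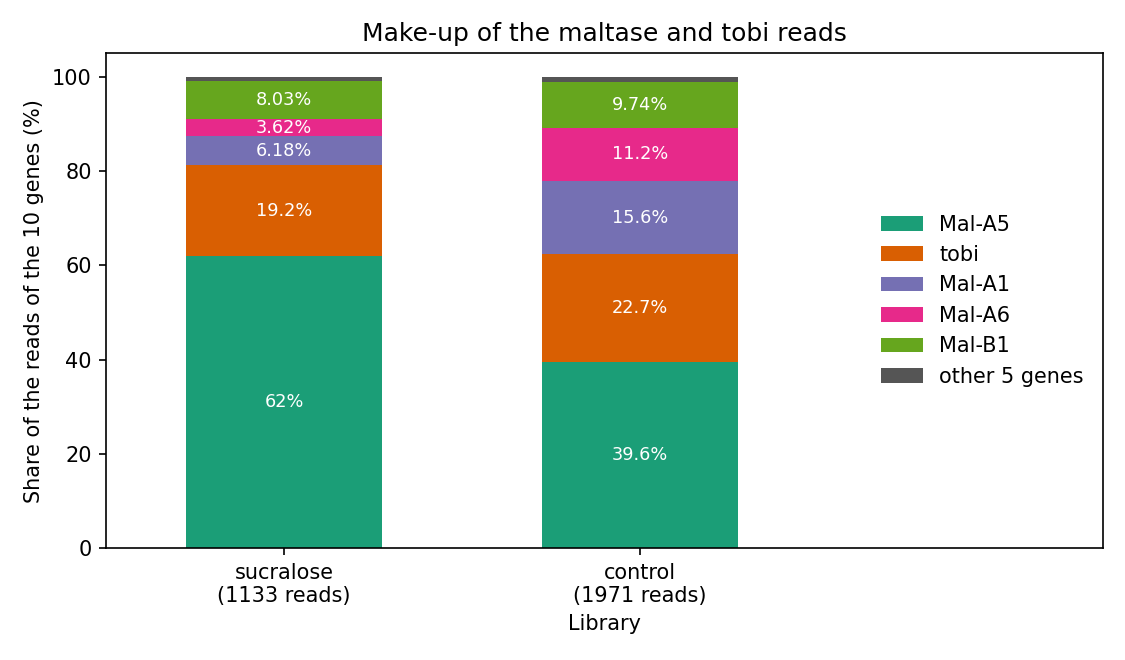
Share of the summed reads of the 10 genes held by each gene in the sucralose library (left, 1133 reads) and the control library (right, 1971 reads), with the 5 genes below 50 summed reads as 1 dark band. Mal-A5 takes 62.0% of the reads in the sucralose and 39.6% in the control library.

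**Figure D4:**
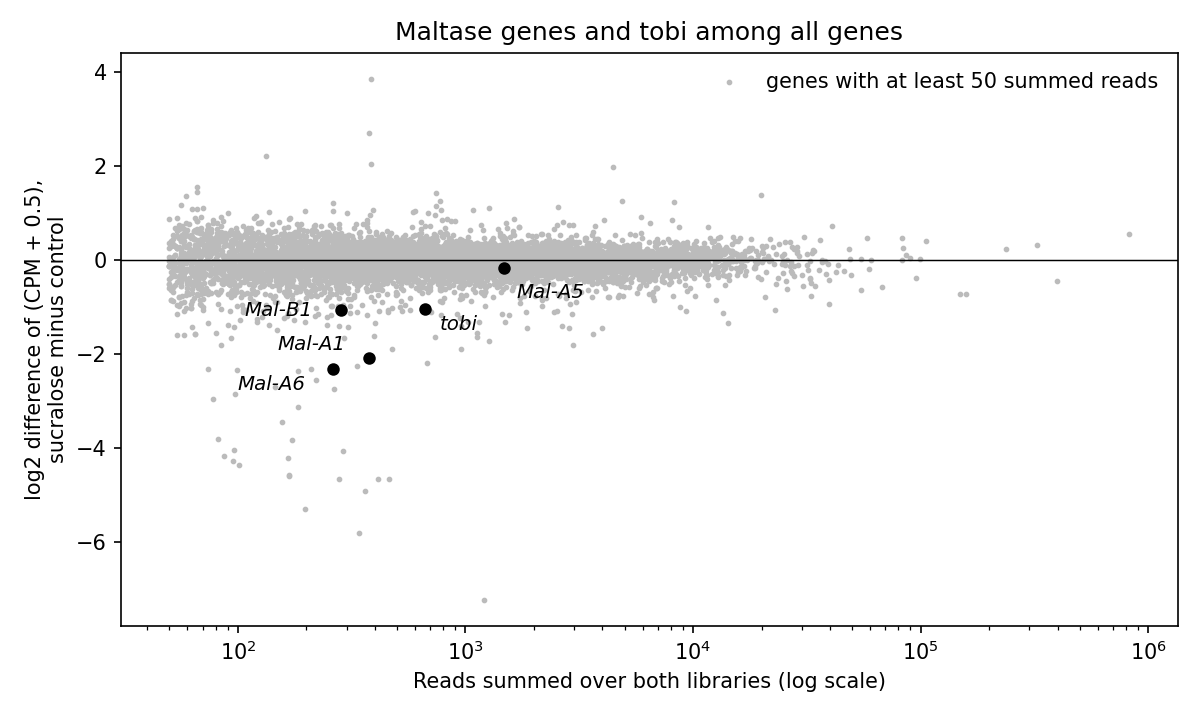
Log2 difference of (CPM + 0.5), sucralose minus control, against reads summed over both libraries (log scale), for 8889 genes (grey) and the 5 better-counted maltase and tobi genes (black). Mal-A6 (-2.32) and Mal-A1 (-2.09) have 28 and 31 genes below them, Mal-B1 (-1.06) and tobi (-1.05) lie between, and Mal-A5 (-0.18) lies inside the main body of genes.

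Over 2 libraries a gene's pattern is a single difference, so likeness to other genes says little. Among 7340 other genes with at least 200 summed reads, Mal-B1 itself was nearest to tobi in log2 difference, followed by CG10516 (-1.07) and the antimicrobial peptide gene AttC (-1.03), and 30 genes lay within 0.1 of tobi. Nearest to Mal-A5 were CG5214, subdued and Arpc3A (each -0.18), among 1692 genes within 0.1 of it.

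Among other enzymes that act on sugars, the amylase genes Amy-p and Amy-d were the lowest of those over the floor. Amyrel, under the floor and named after its value was seen, had 1 read in each library. Of 13 other carbohydrase genes, 8 were over the floor, with a median log2 difference of -0.33. Of the 8, 3 were at least 1.5-fold lower, beside 4.49% of all genes over the floor. None were at least 1.5-fold higher, beside 2.4% of all genes. The 3 were Amy-p, Amy-d and CG9701, the last 2 named after their values were seen. Amy-p, an amylase gene for starch digestion, had 55 reads in the sucralose and 277 in the control library (5.13-fold lower, 3.83 to 6.99). Its near-identical neighbour Amy-d, between which reads may be divided unevenly, had 33 and 88 reads in the sucralose and control libraries (2.72-fold lower, 1.80 to 4.19), and CG9701 had 50 and 96 reads (1.96-fold lower, 1.38 to 2.81). Mal-B2, a maltase gene next to Mal-B1, had 1479 reads in the sucralose and 1919 in the control library (1.32-fold lower, 1.24 to 1.42). The ratios were 0.898 (0.862 to 0.935) for GCS2alpha, a glucosidase that trims glycoproteins in the endoplasmic reticulum, and 0.943 (0.898 to 0.990) for Treh, the trehalase that splits the blood sugar of insects. They were 0.837 (0.754 to 0.930) for Gal, a beta-galactosidase, and 0.854 (0.781 to 0.933) for CG33080.

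Sugar transporter genes over the floor showed no such difference. Of 12 listed, 9 were over the floor, all within 1.5-fold, as were 8277 of all 8889 genes over it. The 9 had a median log2 difference of 0.06. The most abundant by reads, Glut1, had 4154 reads in the sucralose and 3967 in the control library (ratio 1.03, 0.983 to 1.07). The one farthest from 0 over the floor, Tret1-2, had 102 and 72 reads in the sucralose and control libraries (ratio 1.39, 1.02 to 1.91). Just under the floor, sut3, named after its value was seen, had 33 reads in the sucralose and 14 in the control library (ratio 2.31, 1.20 to 4.68).

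Genes listed as possible regulators of carbohydrase or tobi expression were mostly slightly higher. Of 18 listed, 16 were over the floor, 14 of them above 0, beside 4408 of the 8889 genes over the floor. Of the 16, 1 was at least 1.5-fold higher and 1 at least 1.5-fold lower, beside 2.4% and 4.49% of all genes over the floor. The median log2 difference was 0.25. The activin branch of TGF-beta signalling is known to repress carbohydrase genes in the midgut of sugar-fed flies. Its receptor gene babo had 1912 reads in the sucralose and 1564 in the control library (ratio 1.20, 1.12 to 1.28), its transducer gene Smox had 1307 and 1232 reads (ratio 1.04, 0.962 to 1.13), and its ligand gene daw, named after its value was seen, had 1213 and 838 reads (ratio 1.42, 1.30 to 1.55). The ratios were 1.13 (1.08 to 1.19) for crol, 1.19 (1.10 to 1.28) for the glucose sensor gene Mondo and 1.45 (1.34 to 1.57) for the zinc-finger factor gene cbt. The gene past the mark upward was sug, a sugar-induced transcription factor gene also named after its value was seen, with 548 reads in the sucralose and 196 in the control library (ratio 2.74, 2.33 to 3.25). The gene past the mark downward was Akh, which encodes adipokinetic hormone. It had 8 reads in the sucralose and 89 in the control library (11.3-fold lower, 5.51 to 27.1). Fewer cells that make this hormone in the heads taken cannot be told apart from less RNA per cell. No row matched the identifiers of InR and Med. All these values are from whole heads, not midgut, and any link between these genes and the maltase and tobi differences was not tested.

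Gut markers over the floor of 50 reads had lower ratios than any of the 5 maltase and tobi genes over it. None of these markers had more than 13 sucralose reads, so each passed the floor through its control reads. Under the floor the ratios varied, with 0.0377 for LysE and 0.0633 for LysP, but 0.361 for PGRP-SC2, 0.491 for betaTry and 1.64 for LysX. Each of these rests on 33 or fewer summed reads. The 25 gut protease and lysozyme genes with a row summed to 90 reads (8.61 CPM) in the sucralose and 2101 reads (205 CPM) in the control library. All 9 over the floor were at least 2-fold lower, beside 1.61% of all genes over it. Their log2 differences ran from -5.30 to -3.82, while the 5 maltase and tobi genes ran from -2.32 to -0.18. In the sucralose library 7 of the 25 had no reads (Jon25Bi, Jon99Cii, LysB, LysC, LysD, Ser6 and deltaTry). Of these, Ser6 and deltaTry had only 1 read each in the control library. Jon25Biii (9 reads), epsilonTry (3), Jon99Fi (2) and Jon65Aii (1) had reads in the sucralose library and none in the control library. Jon65Aiv, the protease gene with most reads, had 13 in the sucralose and 448 in the control library. Jon99Cii, the farthest from 0 over the floor, had 0 reads in the sucralose and 197 in the control library. The 6 other midgut genes with a row summed to 12 reads in the sucralose and 1572 in the control library, and both of those over the floor, CG12374 (3 and 1208 reads) and CG6295 (1 and 340 reads), were lower. The part of gut RNA in the maltase and tobi differences was not tested.

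Fat body markers, relevant to tobi, were close to level in sum, with 75651 reads in the sucralose and 75042 in the control library (ratio 0.989, 0.979 to 0.999). That sum rests mainly on apolpp (50501 sucralose and 48766 control reads) and Desat1 (18262 and 18484), so it says little of the other genes. Of the 10 over the floor, 6 were below 0 and 4 above (median -0.07). Of the 10, 3 were at least 1.5-fold lower, beside 4.49% of all genes over the floor. None were at least 1.5-fold higher, beside 2.4% of all genes. The 3 were Lsp2, Obp99b (2.96-fold lower, 2.59 to 3.40) and Lsp1beta (1.87-fold lower, 1.61 to 2.18), the last 2 named after their values were seen. The most abundant by reads, apolpp, had a ratio of 1.02 (1.0 to 1.03), and the storage protein gene Lsp2 had 32 reads in the sucralose and 177 in the control library (5.64-fold lower, 3.85 to 8.49). Of the muscle markers, 6 of 14 were at least 1.5-fold lower (median -0.48), beside the same 4.49% of all genes. Of the glial markers, 5 of 9 were at least 1.5-fold lower (median -0.59), beside that 4.49%. The other 4, named after their values were seen, were within 1.5-fold: the pan-glial gene repo (ratio 0.956, 0.854 to 1.07), moody (0.912), loco (1.02) and wrapper (1.08). Neuronal markers were within 1.5-fold in all 7 cases (median -0.04), as were 8277 of all 8889 genes over the floor. In muscle, Mhc had a ratio of 0.678 (0.664 to 0.693) and Act88F, the farthest from 0, was 3.09-fold lower (2.11 to 4.60). In glia the corresponding genes were Gs2 (ratio 0.652, 0.636 to 0.668) and the GABA transporter gene Gat (2.74-fold lower, 2.52 to 2.98). In neurons they were nSyb (ratio 1.15, 1.12 to 1.17) and nrv3 (1.41-fold lower, 1.38 to 1.44).

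**Figure D5:**
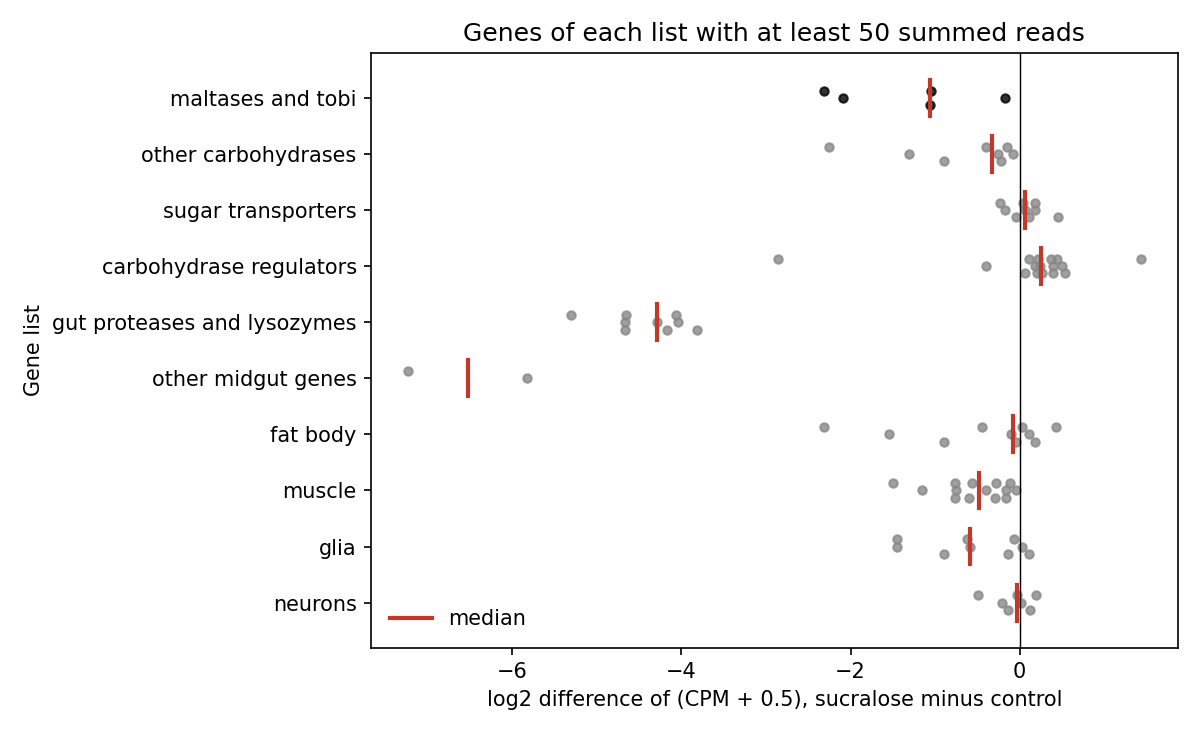
Log2 difference of (CPM + 0.5), sucralose minus control, of each gene with at least 50 summed reads, by list, with medians as red lines. The maltase and tobi genes (median -1.06) lie between gut proteases and lysozymes (median -4.29) and sugar transporters (median 0.06). Each gut protease, lysozyme and other midgut gene shown passed the floor through its control reads, so the medians of these lists were bound to be low.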

How the data were processed

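Per the labels' protocols, Trizol extraction of head RNA was followed by standard Illumina library preparation. The authors deposited 1 table per library. Per the file headers, its count column holds unique reads per gene, and these raw counts sum to the header's total. The deposited RPKM values were recomputed from counts and lengths with the same result, and the deposited coverage is the percent of the gene model covered by reads. The sources used here name no aligner, build, annotation release or strandedness, and unique counting may lose reads of near-identical copies.

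Counts were scaled by the trimmed mean of M-values (edgeR 4.0.16, R 4.3.3) over all 12083 genes. Log2 differences use CPM + 0.5. Ratios carry conditional exact binomial 95% intervals and RPKM exact Poisson intervals, which cover counting error only since PCR reads are not independent molecules. Coverage under random placement is 1 minus the exponential of minus the mean depth. Other steps ran in Python 3.11.15 (SciPy 1.17.1, numpy 2.4.6, pandas 2.3.3, matplotlib 3.10.9). Interval and ratio code was tested on simulated data. All 10 genes were named whatever their values. Of each other list, the gene with most reads and the one farthest from 0 over the floor of 50 reads were named, and up to 5 of the carbohydrase and regulator lists by read number. Members and lists were chosen with earlier results of these data known. Alternatives were 4 other scalings, 2 other pseudocounts, other floors, and ratios of the deposited RPKM and coverage.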

Additional observations from a re-analysis of the deposited data

How the results depend on the processing

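Of 91 values recomputed under the alternatives, 81 kept their direction and stayed within the counting interval, or within 1.5 times for counts of genes, and 10 moved, with no direction reversed. Many of the 81 had little or no room to move, so this tally is a weak check. Deposited RPKM ratios repeat those of total counts, and the order by RPKM repeats that by reads per length. Floors of 20 and 200 reads kept 5 genes, as did 50, and the other scalings shifted every gene by at most 0.0203 log2. Over the 4 other scalings, the summed ratio lay between 0.565 and 0.572 and that of Mal-A6 between 0.182 and 0.185. Without Mal-A5 the summed ratio was 0.355. With a pseudocount of 5 CPM the log2 differences shrank, by construction, to -1.58 for Mal-A1, -1.57 for Mal-A6 and -0.28 for Mal-A8. Ratios of deposited coverage, which saturates once reads span the model, were 0.799 for Mal-A1, 0.993 for Mal-A5, 0.601 for Mal-A6, 0.892 for Mal-B1 and 0.971 for tobi. With no floor, 6 of 10 genes passed the 1.5-fold mark downward and 0 upward, Mal-A3, Mal-A4 and Mal-A7 giving no ratio. The genes added were Mal-A2 (6 sucralose and 9 control reads) and Mal-A8 (1 and 12 reads). No share of all genes without a floor was computed, so this count shows nothing particular to these genes. The median log2 difference without a floor was -0.70. Depth limits the 5 genes under 50 summed reads, of which Mal-A3, Mal-A4 and Mal-A7 allow no ratio. No paired analysis was possible because each diet has 1 library and the labels give no replicate numbers. Leaving out a replicate was not possible for the same reason.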
